A study of Rattus norvegicus with 30 samples.

Results

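The genes described here are 8 genes of antigen presentation, B2m, Tap1, Tap2, Tapbp, Cd74, RT1-Da, RT1-Ba and RT1-Bb, measured in rat hepatocytes treated with sodium valproate. They were found through every probeset that the array's annotation gives one of these symbols. This gave 14 of 31042 probesets and 8 of 14217 genes. Dim probesets, those whose mean fell under the 30th percentile, were filtered out. Of the 14 probesets 12 passed, so that each gene kept at least 1. The second probeset of Tap1 (1375379_at) and 1 of 4 probesets of RT1-Ba (1377334_at) did not pass and were not tested. No probeset that lists several RT1 symbols held any of the 8 symbols. The 6 such probesets on the array all listed class I genes.

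The cells were frozen primary hepatocytes of male Sprague Dawley rats, bought from one supplier and dosed on day 3 of culture. Valproate, a medicine for epilepsy with a branched short carbon chain, is known to inhibit histone deacetylases. Wells of culture plates gave 5 cultures for each of 6 groups, which were water (the vehicle), 0.5 mM valproate and 10 mM valproate, each at 24 h and at 48 h. The labels' protocols call the cultures independent, but the sources used here give neither how many animals the cells came from nor which wells shared a plate. The p-values therefore measure the spread between cultures, which may be technical. A plated hepatocyte preparation can hold other liver cells, and such a culture has no immune system around it.

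Cells show peptides on proteins of the major histocompatibility complex (MHC), named RT1 in the rat. Class I molecules stand on nearly all nucleated cells and pair a heavy chain with beta-2-microglobulin, the product of B2m. Their peptides come from the proteasome, enter the endoplasmic reticulum through the transporter formed by Tap1 and Tap2, and are loaded with the help of tapasin, the product of Tapbp. Class II molecules are pairs of an alpha and a beta chain, here RT1-Da of the D molecule and RT1-Ba with RT1-Bb of the B molecule. They assemble with the invariant chain, the product of Cd74, and are typical of macrophages, dendritic cells and B cells, while resting hepatocytes carry little of them. In the liver, Kupffer cells and sinusoidal endothelium are known to carry class II.

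On the rat assembly GRCr8, RefSeq places B2m on chromosome 3 and Cd74 on chromosome 18, and the other genes in the MHC of chromosome 20. Promoter windows of RefSeq were at hand for 8 of 8 genes. In 250 bases of each promoter window, both strands were searched for CCAAT (the core of the Y box of class II promoters), the core of the interferon-stimulated response element (GAAA, any 2 bases, GAAA), TTCNNNGAA (a gamma-activated site) and TGACGTCA (the full cyclic AMP response element, the consensus of the class II X2 box). For B2m, Tapbp, Cd74 and RT1-Da the end of these bases lay inside the annotated gene. No letters are shared between matches of different motifs here. Up to 130 bases upstream of the annotated gene are shown for the class II chains, with motif matches in capitals and each sequence read 5′ to 3′ along the gene's strand.
RT1-Da, chr20:4515263-4515392, plus strand: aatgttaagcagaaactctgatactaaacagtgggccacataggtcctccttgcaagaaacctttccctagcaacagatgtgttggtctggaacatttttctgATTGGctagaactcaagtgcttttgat
RT1-Ba, chr20:4576927-4577056, plus strand: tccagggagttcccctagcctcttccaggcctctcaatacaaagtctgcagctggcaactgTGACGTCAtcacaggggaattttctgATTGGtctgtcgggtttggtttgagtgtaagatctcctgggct
RT1-Bb, chr20:4604119-4604248, minus strand: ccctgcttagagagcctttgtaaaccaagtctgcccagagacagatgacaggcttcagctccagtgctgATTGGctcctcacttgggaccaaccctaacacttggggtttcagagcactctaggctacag
The 3 class II windows and that of Cd74 each held CCAAT or its reverse ATTGG, as did that of B2m, and 34.0% of 33469 windows of the same length did so. The match of B2m lay inside the annotated gene. RT1-Ba was the only one of the 8 with TGACGTCA, which 1.59% of windows held. The class I side differed in its letters. B2m, Tap1, Tap2 and Tapbp each held the interferon core on one strand, found in 3.41% of windows. The matches of Tapbp lay inside the annotated gene, and the other 3 genes are shown for that match.
B2m, chr3:129549106-129549235, plus strand: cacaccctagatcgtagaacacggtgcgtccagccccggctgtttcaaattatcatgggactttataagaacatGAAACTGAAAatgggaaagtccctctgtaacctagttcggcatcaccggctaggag
Tap1, chr20:4668544-4668673, minus strand: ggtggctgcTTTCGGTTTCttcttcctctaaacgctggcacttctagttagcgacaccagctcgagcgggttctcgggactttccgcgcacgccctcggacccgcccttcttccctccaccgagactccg
Tap2, chr20:4652297-4652426, minus strand: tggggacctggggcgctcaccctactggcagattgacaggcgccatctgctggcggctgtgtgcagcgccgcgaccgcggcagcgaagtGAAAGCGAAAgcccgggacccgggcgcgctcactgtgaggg
No TTCNNNGAA lay in any of the 8 windows, against 7.67% of all. A match describes letters and is not a measured binding site.

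Values are the deposited signal of the array, in arbitrary units, which cannot be set against each other between probesets. Changes are differences of log2(signal + 16) and carry the standard error (SE) of a linear model of all 6 groups (limma, 5 cultures per group), and a change was called at a Benjamini-Hochberg adjusted p under 0.05 over all 21729 tested probesets. On arrays of one group the log2 values correlated at a median of 0.960 and at 0.944 or above, and no pair of arrays correlated above 0.967. The ratio of 3′ to 5′ actin probesets, a sign of RNA quality, passed 2 on the log2 scale on 3 arrays, 1 of water at 24 h and 2 of 0.5 mM at 48 h. Calls of the 8 genes that were lost without these 3 arrays are named beside their values. Precision is limited by the number of arrays.

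At 10 mM and 24 h, Cd74 and the class II chain RT1-Da fell against water, as did 1 of 3 tested probesets of the class II chain RT1-Ba, though not its brightest, while Tap1 rose. Of the 12 tested probesets, 1 was called higher and 3 lower. Over the whole array 48.2% of probesets were called in that comparison, and 28% were called higher and 20.2% lower. The median change of the 12 was -0.23, beside 0.10 over all tested probesets. Values did not overlap between the groups for 4 of the 12, against 38.3% of all probesets. The share of the 12 that was called was below that of the array, but 12 probesets, some of the same gene, are too few to read this as a difference.

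At 48 h no probeset of the 12 was called higher and 4 were called lower, with 41.8% of all probesets called (23.9% higher and 17.9% lower). Those 4 belonged to Cd74, RT1-Ba, Tapbp and B2m, of which B2m changed sign after centring on ribosomal protein genes. The median change of the 12 was -0.22, against 0.04 over all. Groups stayed apart without overlap for 1 of the 12, where 35% of all probesets did.

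**Figure D1:**
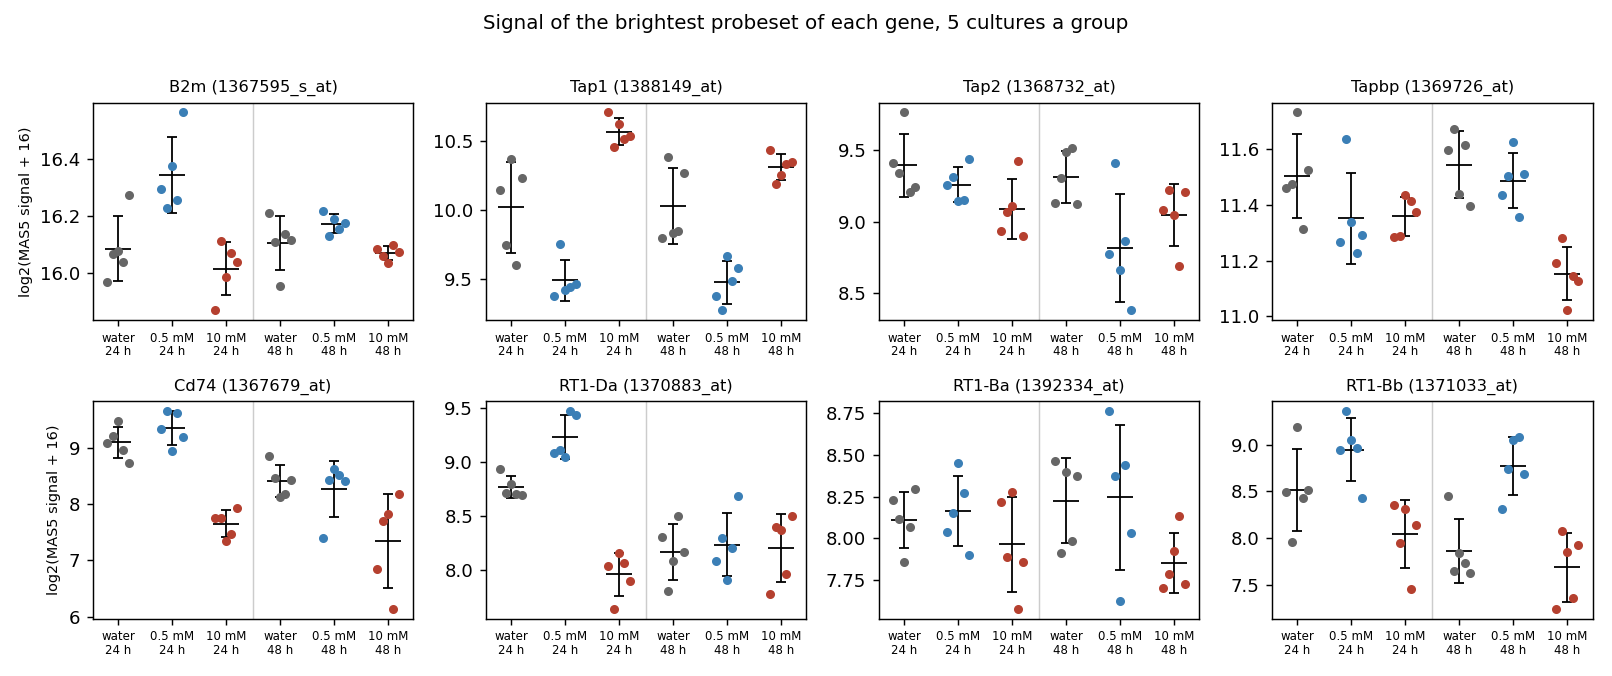
Signal on the log2(signal + 16) scale (vertical axis) of the brightest probeset of each gene in water, 0.5 mM and 10 mM cultures at 24 h and 48 h (horizontal axis). Points are single cultures, bars the mean and SD of 5. Cd74 and RT1-Da lie below water in all 10 mM cultures at 24 h, and Tap1 lies lowest in the 0.5 mM cultures at both times.

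Cd74, the invariant chain that blocks the groove of new class II molecules, had signals of 411, 484, 529, 579 and 699 in water at 24 h, a mean of 540.3 ± 108 (SD, n = 5). In 10 mM valproate they were 147, 162, 199, 201 and 229, a mean of 188 ± 32.9. Every treated culture lay below every water culture. Cd74 fell by 1.44 on the log2 scale (SE 0.28, adjusted p = 5.91e-05), and the call held in every alternative analysis and with each array left out. At 48 h the water cultures read 264, 275, 327, 337 and 450.0 and the 10 mM cultures 54.6, 99.7, 193, 212 and 274. The highest treated culture lay above the lowest water culture, and the groups were otherwise apart. The change was -1.07 ± 0.28 (SE, adjusted p = 0.00223). With each array left out in turn it ranged from -1.28 to -0.77 and stayed called. The 10 mM group had a mean of 7.34 on the log2 scale, under the filter's level of 7.39. The sizes of changes that use this group are therefore uncertain.

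At 0.5 mM Cd74 read 475, 570.2, 635, 775 and 791 at 24 h and 153, 327, 329.6, 349.9 and 378 at 48 h. Both sets overlapped those of water, and neither passed the test (0.25 ± 0.28, adjusted p = 0.536, and -0.13 ± 0.28, adjusted p = 0.797). Against 0.5 mM, the 10 mM dose was lower by 3.24-fold at 24 h (adjusted p = 5.21e-06). At 48 h Cd74 differed between the doses by -0.94 ± 0.28 (adjusted p = 0.00618). That call was lost without the 3 arrays of high actin ratio and when only the compared groups were fitted. Ranked by mean, the 24 h groups ran from 10 mM to water to 0.5 mM, and the last 2 did not differ beyond their spread. The fall was not shown to differ between the times, as the interaction of 10 mM with time gave 0.37 ± 0.40 (adjusted p = 0.625).

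RT1-Da, the alpha chain of the D molecule, is known by 1 probeset (1370883_at). In water at 24 h it read 399, 400.0, 403, 427.5 and 473, with a mean of 421 ± 31.7. The 10 mM cultures read 184, 223, 248, 252 and 270.1, with a mean of 235 ± 33.2, and the 0.5 mM cultures 514, 528, 538, 678 and 694, with a mean of 590.4 ± 87.7. The 3 groups were fully apart, with 0.5 mM highest and 10 mM lowest. At 10 mM the change was -0.80 ± 0.17 (adjusted p = 2.4e-04), called in all removals and in all alternatives that tested the probeset. Between the doses it was -1.27 ± 0.17 (adjusted p = 2.29e-07). The rise at 0.5 mM, 0.47 ± 0.17, lay at the threshold (adjusted p = 0.0499) and is not secure, because the call was lost when any single one of the 10 arrays was left out (changes from 0.41 to 0.51, adjusted p up to 0.119) and in 8 of 10 alternatives, among them that without the 3 arrays of high actin ratio and the block of running numbers, with an adjusted p between 0.0373 and 0.176 over the 10.

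By 48 h the signals of RT1-Da had drawn together. Water cultures read 208, 255, 272, 302 and 346, those at 0.5 mM 224, 257, 279, 298 and 396, and those at 10 mM 205, 234, 316, 322 and 347. All 3 groups overlapped throughout, and at 10 mM the change from water was 0.03 ± 0.17 (adjusted p = 0.903). The effect of 10 mM differed between the times by 0.84 ± 0.25 (adjusted p = 0.0241), but not without the second 10 mM array of 24 h (0.76), the second water array of 48 h (0.74) or the fifth 10 mM array of 48 h (0.76). Among the 12 probesets this was the 1 call for that interaction, where 10.5% of all probesets were called (5.8% higher and 4.71% lower). In water alone RT1-Da was 0.59 ± 0.17 lower at 48 h than at 24 h (log2, adjusted p = 0.0312), and this call too was lost without water array 1 or 3 of 24 h or array 2, 3 or 5 of 48 h, with changes of -0.68 to -0.50 over the removals. It was also lost without the 3 arrays of high actin ratio, without a filter and when only the compared groups were fitted. The time comparison of water called 2 of the 12 probesets, both lower, against 7.77% of all probesets (3.93% higher and 3.84% lower), and 1 of the 12 did not overlap between the times, against 7.92% of all.

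RT1-Ba encodes the alpha chain of the B molecule, and its 4 probesets did not move together. On 1370822_at the water cultures of 24 h read 232, 304, 304, 389 and 460.2 and the 10 mM cultures 59.1, 91.2, 110.0, 141 and 224. No value overlapped, and the change was -1.40 ± 0.35 (adjusted p = 0.00117). The untested 1377334_at went the same way, from 244, 249, 308, 354 and 533 to 24.6, 26.7, 43.4, 69.5 and 168, again with no overlap. In contrast, the brightest probeset, 1392334_at, read 216 to 297 in water and 175 to 294 at 10 mM, so the groups overlapped (-0.15 ± 0.20, adjusted p = 0.577). For 1381593_x_at, whose suffix marks probes that can bind other transcripts, the 24 h change was -0.42 ± 0.32 (adjusted p = 0.294).

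By 48 h 1370822_at read 60.8, 79.5, 89.6, 159 and 237 in water and 23.4, 49.0, 50.4, 57.1 and 63.4 at 10 mM. The lowest water culture lay below the highest treated one. RT1-Ba changed on this probeset by -1.02 ± 0.35 (adjusted p = 0.0182), a call lost after centring on ribosomal protein genes (adjusted p = 0.054), and without water array 1 or 2 or the first 10 mM array (changes over the removals from -1.21 to -0.78, adjusted p up to 0.0823). The same probeset of RT1-Ba was lower in water at 48 h than at 24 h, by -1.43 ± 0.35 (adjusted p = 0.00903). Between the doses it differed by -1.75 ± 0.35 at 24 h (adjusted p = 8.53e-05) and -1.71 ± 0.35 at 48 h (adjusted p = 1.32e-04), with no overlap at either time. Its means lay above the level of the filter, a signal of 152, in water at 24 h and in 0.5 mM at both times, and below it in water at 48 h (125 ± 72.9) and in 10 mM at both times. The probeset thus passed the filter through the groups where it was high. Each of its called changes, at 24 h, at 48 h, between the doses and in water over time, rests on a group below that level. In the 48 h fall against water both groups lay below it. The sizes of all these changes are uncertain.

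RT1-Bb, the beta chain of the B molecule, was read by 2 probesets. On 1371033_at the signals at 24 h were 233, 329, 346, 351 and 567 in water, 329, 474, 482, 513 and 639.8 at 0.5 mM, and 159, 232, 267, 302 and 312 at 10 mM. Both doses overlapped water, whereas the doses did not overlap each other. Against water neither passed (0.43 ± 0.23, adjusted p = 0.185, and -0.47 ± 0.23, adjusted p = 0.0957), and between the doses RT1-Bb differed by -0.90 ± 0.23 (adjusted p = 0.00161). At 48 h water read 183, 185, 197, 213 and 334, 0.5 mM 303, 394, 411, 512 and 525, and 10 mM 136, 148, 215, 227 and 255. The 0.5 mM cultures were high, and all but 1 of the water cultures lay below them. Their rise of 0.91 ± 0.23 (adjusted p = 0.00462) was no longer called with the actin ratio as a covariate or without the arrays where that ratio was high. The difference between the doses, -1.08 ± 0.23 (adjusted p = 2.64e-04), was called in every removal and in every alternative that tested the probeset.

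The second probeset of RT1-Bb, 1371065_at, was also lower at 10 mM than at 0.5 mM at 24 h (-0.87 ± 0.30, adjusted p = 0.0145), but did not pass at 48 h (0.42 ± 0.30, adjusted p = 0.258). Its 24 h signals were 106 to 315 in water, 309.9 to 402 at 0.5 mM and 125 to 268 at 10 mM. At 48 h they were 151 to 341, 70.8 to 286 and 158 to 282. The rise at 0.5 mM and 24 h, 0.92 ± 0.30 (adjusted p = 0.022), was lost without water array 1 or 4 (changes over the removals from 0.76 to 1.12, adjusted p up to 0.0758). That call was also lost without the arrays of high actin ratio, with the actin ratio as a covariate and under quantile normalization. The effect of 0.5 mM on this probeset of RT1-Bb differed between the times by -1.51 ± 0.42 (adjusted p = 0.012). This was the 1 call of the 12 for that interaction, where 19.5% of all probesets were called (9.83% higher and 9.66% lower), and it too was lost when the actin ratio was a covariate or those arrays were left out.

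**Figure D2:**
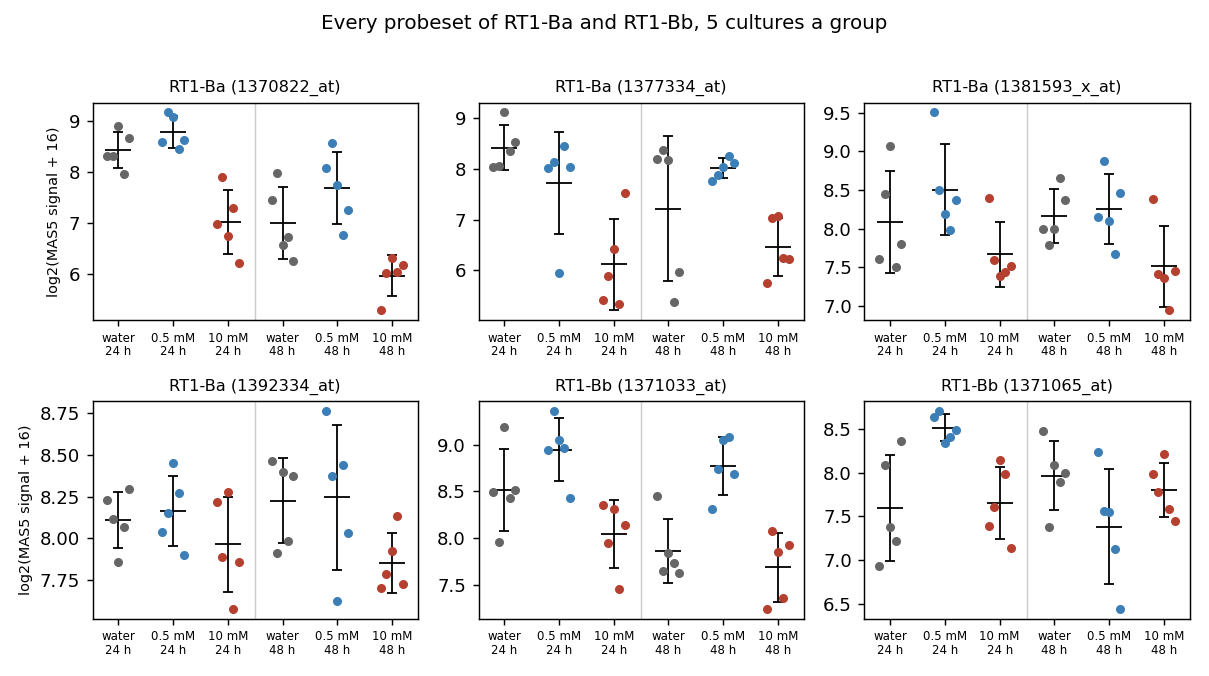
Signal on the log2(signal + 16) scale (vertical axis) of the 4 probesets of RT1-Ba and the 2 of RT1-Bb in each group (horizontal axis), with points for cultures and bars for the mean and SD of 5. Both 1370822_at and 1377334_at drop in the 10 mM cultures of 24 h, while 1392334_at overlaps water there.

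The summed signals of macrophage and of sinusoidal endothelium markers, cells that both carry class II, were lower in the same 10 mM cultures. This was not particular to them. Sums of stellate cell and fibroblast markers were also lower at both times, those of hepatocyte markers at 24 h and those of cholangiocyte (bile duct cell) markers at 48 h. The sum of general leukocyte and myeloid markers overlapped water. Of 17 macrophage and Kupffer cell markers listed, 13 were measured and 11 tested. At 10 mM and 24 h, 8 of the 11 fell and none rose (median -1.17 against 0.10 over all probesets), and at 48 h again 8 fell and none rose (median -0.90). Over the array 20.2% of probesets were called lower at 24 h and 17.9% at 48 h. Without the 3 arrays of high actin ratio the counts were 7 lower and 1 higher at 24 h, and 8 lower at 48 h. The summed signal of the 13 lay between 30350 and 34352 in water at 24 h and between 12969 and 14606 at 10 mM, and at 48 h between 26749 and 28936 and between 10662 and 16158. No sum of a 10 mM culture reached that of any water culture. At 0.5 mM the sums were 35714.0 to 38594 at 24 h and 27974 to 33938 at 48 h, with 1 marker called higher at the first time and 1 lower at the second.

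Cd14, a receptor for bacterial lipopolysaccharide, held most of that sum in water at 24 h, where the mean sum was 32518. Signals of different probesets share no common scale, so the sum mainly follows this gene. Which cells made its RNA was not tested. Its mean went from 19104 ± 1636 to 4565 ± 341 (SD, n = 5) at 24 h, a change of -2.06 ± 0.15 (adjusted p = 6.05e-13). The complement gene C1qc of macrophages went from 576 ± 102 to 126 ± 58.8, a change of -2.17 ± 0.26 (adjusted p = 2.51e-08). Its mean at 10 mM lay below the level of the filter, a signal of 152, so the size of this change is uncertain. Cd14, C1qc and Lyve1 here, and RT1-N3, RT1-M3-1 and Lgmn below, were picked after their values were seen. Adgre1 and Cd163 did not pass the filter. The 8 measured endothelial markers summed to 2444 to 3544 in water at 24 h and to 1240.2 to 1583 at 10 mM, and 2 of 5 tested fell (median -0.63, with 20.2% of all probesets called lower), among them Lyve1 (-1.06 ± 0.22, adjusted p = 1.76e-04). At 48 h they summed to 1883 to 2326 and to 1119.7 to 1612, and 1 of 5 fell (median -0.31, with 17.9% of all called lower). The 10 measured markers of all leukocytes and myeloid cells summed to 2697 to 4011 in water and 2873.5 to 3751 at 10 mM at 24 h, and to 2067 to 3023 and 2822 to 3365 at 48 h. Of the 5 tested, 1 fell at 24 h and 2 at 48 h (medians -0.41 and -0.45), where 20.2% and 17.9% of all probesets were called lower. Stellate cell and fibroblast markers, 10 measured, summed to 5083 to 5910.0 in water and 3453 to 4119 at 10 mM at 24 h, and to 5046 to 6081 and 3650 to 4372 at 48 h. Of these, 3 of 8 tested fell at each time (medians -0.17 and 0.00), where 20.2% and 17.9% of all probesets were called lower. The 5 measured cholangiocyte markers summed to 10578.5 to 12264 in water at 48 h and to 4967 to 6585 at 10 mM. Their sums overlapped at 24 h, and 1 of 2 tested fell at each time. Of the dendritic and B cell markers, 1 of 4 measured passed the filter in each list. These were Batf3 and Ms4a1, at percentiles 43.3 and 51.6 of mean signal. Flt3, Clec9a, Itgax, Cd79b and Cd37 stood at percentiles 2.68 to 4.96 and Blnk at 18.8. In water at 24 h the 9 hepatocyte markers measured summed to 476730 to 593287, and at 10 mM to 390709 to 471572. At 48 h the sums overlapped, at 455841 to 524400 and 427432 to 478536. Of the 9, 7 fell at 24 h (median -0.27), and 3 fell and 2 rose at 48 h (median -0.10). Over the array 20.2% of probesets were called lower at 24 h, and 17.9% lower and 23.9% higher at 48 h. In bulk RNA, fewer cells of a type and less RNA per cell cannot be told apart, and the part of these markers in the fall of Cd74 and the class II chains was not tested.

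**Figure D3:**
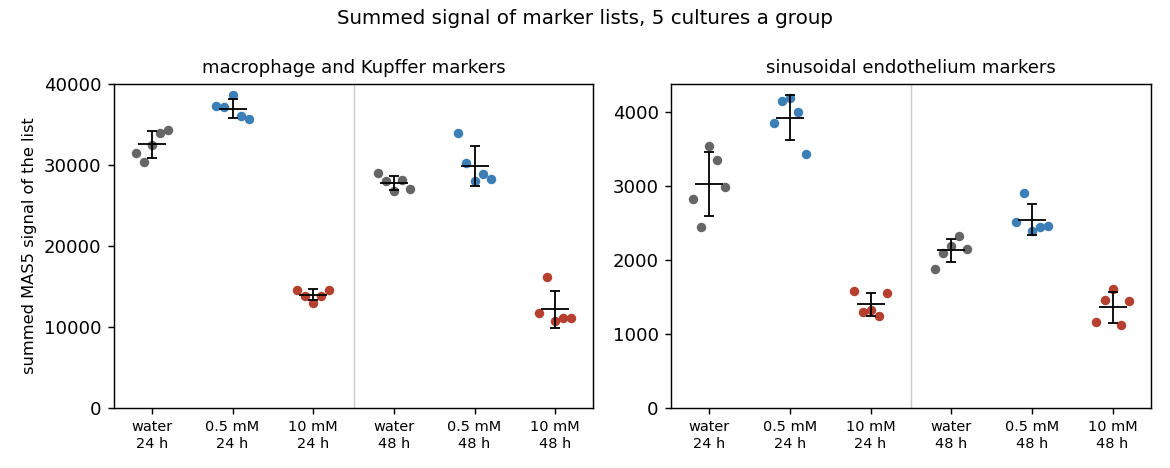
Summed signal (vertical axis, linear) of the macrophage and Kupffer cell list and of the sinusoidal endothelium list in each group (horizontal axis), 1 point per culture with the mean and SD of 5. The macrophage sums of the 10 mM cultures lie at 10662 to 16158, below every water and 0.5 mM culture. Cd14 holds most of the macrophage sum in water at 24 h.

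Calls in the rest of the class II pathway went both ways at 10 mM. From a list of 15 genes of class II chains, loading and processing, 10 were measured and 9 tested. At 24 h 2 rose and 3 fell (median -0.09), and at 48 h 3 rose and 2 fell (median -0.04). Over the array 28% of probesets were called higher and 20.2% lower at 24 h, and 23.9% and 17.9% at 48 h. Counts this small do not set the list apart from the array. Ctss, cathepsin S, which trims the invariant chain, fell from 2007 ± 233 to 661 ± 128 at 24 h (-1.59 ± 0.13, adjusted p = 5.37e-12) and by 1.12 ± 0.13 at 48 h (adjusted p = 1.54e-08). RT1-Db1, the beta chain that pairs with RT1-Da, fell by 0.66 ± 0.24 at 24 h (adjusted p = 0.0244), a call lost without array 1 or 4 of 10 mM or array 2 or 4 of water (changes over the removals from -0.80 to -0.55) and after centring on ribosomal protein genes. RT1-DMa, a chain of the molecule that exchanges class II peptides, rose from 865 ± 144 to 2024 ± 189 (1.22 ± 0.11, adjusted p = 3.48e-11) and by 1.43 ± 0.11 at 48 h (adjusted p = 1.66e-12), and in neither comparison did the groups overlap. Its partner RT1-DMb showed 0.23 ± 0.12 (adjusted p = 0.111) and 0.28 ± 0.12 (adjusted p = 0.0587). Lgmn, the lysosomal protease legumain, rose by 1.33 ± 0.07 and 0.74 ± 0.07 (adjusted p = 1.58e-16 and 1.54e-10). Ifi30, a thiol reductase of lysosomes, was called at 48 h only, at -0.39 ± 0.11 (adjusted p = 0.00371), and not after centring on ribosomal protein genes.

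Neither known master activator of the MHC genes was called at any dose or time against water. For Ciita, which drives class II, the changes at 10 mM were 0.52 ± 0.31 (adjusted p = 0.178) at 24 h and 0.10 ± 0.31 (adjusted p = 0.837) at 48 h. Nlrc5, which drives class I, showed -0.27 ± 0.27 (adjusted p = 0.439) and -0.31 ± 0.27 (adjusted p = 0.381). Rfx5, a subunit of the factor that binds the X box, was lower at 48 h by -0.24 ± 0.10 at 10 mM (adjusted p = 0.044) and -0.37 ± 0.10 at 0.5 mM (adjusted p = 0.00434), and both calls were lost after centring on ribosomal protein genes, the first also without array 1, 2 or 3 of 10 mM or array 3, 4 or 5 of water (changes over the removals from -0.30 to -0.18). The interferon-induced factor Irf1 rose at 10 mM and 24 h from 1343 ± 291 to 2051 ± 198 (0.62 ± 0.13, adjusted p = 1.17e-04) and fell at 0.5 mM and 48 h (-0.60 ± 0.13, adjusted p = 6.87e-04). Of 13 tested regulators, 5 rose and 1 fell at 10 mM and 24 h, where 28% of all probesets were called higher and 20.2% lower.

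On the class I side, Tap1, a chain of the peptide transporter, was the gene of the 8 that rose at 10 mM. Probeset 1388149_at read 761, 841, 1119.7, 1189.9 and 1311 in water at 24 h and 1391, 1450.1, 1473, 1563 and 1659.9 at 10 mM. All treated cultures were above all water cultures, and the change was 0.55 ± 0.13 (adjusted p = 7.61e-04), called in each alternative and removal. At 0.5 mM the signals were 646, 666, 679, 689 and 845. Of these, 4 lay below every water culture and 1 inside the range of water, with a change of -0.53 ± 0.13 (adjusted p = 0.00343). The doses thus lay on opposite sides of water, and Tap1 was 2.12-fold higher at 10 mM than at 0.5 mM (adjusted p = 2.44e-08).

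At 48 h the order of the Tap1 means was the same. Water read 873, 897, 907, 1219.8 and 1323, 0.5 mM 601, 646, 700.1, 747 and 794, and 10 mM 1153, 1204, 1278, 1288 and 1372. The 0.5 mM cultures were below all water cultures, and those at 10 mM overlapped them. Tap1 fell by 0.56 ± 0.13 at 0.5 mM (adjusted p = 0.00229), a call lost after centring on ribosomal protein genes, and at 10 mM the change of 0.29 ± 0.13 did not pass (adjusted p = 0.0826), though it did after that centring and with array weights. The effect of 10 mM was not shown to differ between the times (-0.26 ± 0.19, adjusted p = 0.422). Between the doses the difference was 0.84 ± 0.13 (adjusted p = 2.68e-06). The second probeset of Tap1, 1375379_at, was dim, with single signals from 16.8 to 293 and overlap in every comparison.

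Tap2, the other chain of the transporter, read 576 to 855 in water, 549.6 to 679 at 0.5 mM and 462 to 672 at 10 mM at 24 h, and 543 to 715, 317 to 665.5 and 396 to 580.3 at 48 h. All groups overlapped at each time. Its 1 call was a fall of 0.50 ± 0.16 at 0.5 mM and 48 h (adjusted p = 0.0202), lost without water array 3 or 4 or 0.5 mM array 3 or 5 (changes over the removals from -0.65 to -0.39, adjusted p up to 0.0843) and in 4 of 11 alternatives, among them that without the 3 arrays of high actin ratio. At 10 mM Tap2 changed by -0.31 ± 0.16 (adjusted p = 0.106) at 24 h and -0.26 ± 0.16 (adjusted p = 0.187) at 48 h. Whether Tap1 and Tap2 responded differently was not tested.

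Tapbp, which bridges the transporter and empty class I molecules, read 2680.0, 2762, 3087, 3121 and 3249 in water at 48 h and 2063, 2220.4, 2249, 2321 and 2475 at 10 mM. No culture of one group reached the other, and Tapbp fell by 0.39 ± 0.08 (adjusted p = 2.12e-04). The call was lost after centring on ribosomal protein genes. From 0.5 mM, at 2610.2 to 3146, it differed by -0.33 ± 0.08 (adjusted p = 0.00108). At 24 h the groups ran from 2531 to 3388 in water, from 2384 to 3168 at 0.5 mM and from 2479 to 2752 at 10 mM, and no comparison passed.

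B2m, the light chain of every class I molecule, lay near the top of the array. Its probeset 1367595_s_at stood at the 99.95th percentile of mean signal, with 64098 to 79287 in water at 24 h, 76709.6 to 96859 at 0.5 mM and 59808 to 70790.0 at 10 mM. The 0.5 mM cultures were the highest as a group but overlapped water, and the change was 0.26 ± 0.06 (adjusted p = 0.00159), lost under quantile normalization. At 48 h the 3 groups lay within 63377 to 76106, and none of the comparisons with water passed. On 1371440_at water read 10625, 11514, 12356, 12582 and 12705 at 24 h, 0.5 mM 13874, 14057, 14573, 14857.5 and 15886, and 10 mM 9922, 10433, 11045, 11167 and 11595. The 0.5 mM cultures exceeded all others, by 0.29 ± 0.06 over water (adjusted p = 6.27e-04) and with -0.44 ± 0.06 for 10 mM against 0.5 mM (adjusted p = 3.4e-07).

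That order of B2m held at 48 h. Water read 9606, 10162, 10400.4, 10962 and 11614, 0.5 mM 12709, 12886, 13808, 14415 and 14836, and 10 mM 8988, 9249, 9474, 9610.5 and 9804. At 0.5 mM B2m rose by 0.38 ± 0.06 (adjusted p = 2.36e-05) with no overlap, and this and the 24 h rise on the same probeset were called under every scaling and removal. At 10 mM the change of -0.16 ± 0.06 (adjusted p = 0.0346) overlapped water, was lost in 5 of 10 removals (without array 1, 3 or 4 of 10 mM, or 2 or 5 of water, with changes from -0.19 to -0.12 and an adjusted p up to 0.122), and took the other sign after centring on ribosomal protein genes (0.040).

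Against water, 0.5 mM valproate called 4 of the 12 probesets higher and 1 lower at 24 h, where 23.8% of all probesets were called (11.5% higher, 12.3% lower). At 48 h it called 2 higher and 2 lower, where 22.1% of all were called (10.2% higher, 11.9% lower). The medians of the 12 were 0.28 and 0.04, against 0.07 and -0.00 over all. Without water array 1 or 4 the 24 h count was 3 in place of 5, and without the 3 arrays of high actin ratio it was 3 at 24 h and 2 at 48 h. Groups did not overlap for 2 of the 12 at 24 h and 2 at 48 h, where 15.8% and 12.5% of all probesets did not.

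The comparison of the doses held the most calls. At 24 h 8 of the 12 were lower at 10 mM than at 0.5 mM and 1 was higher, with 51% of all probesets called (28.2% higher and 22.9% lower). These 8 were both probesets of B2m, Cd74, RT1-Da, 2 of RT1-Ba and both of RT1-Bb, and the 1 was Tap1. The sign for 1367595_s_at of B2m turned under quantile normalization (0.014). The median was -0.64, beside -0.01 over all probesets. Between the doses 8 of the 12 did not overlap, against 42.6% of the array. At 48 h 5 were lower and 1 higher, with 46.2% of all called (26.5% higher and 19.7% lower), and 6 did not overlap, against 33.2%. Among the 24 h calls, that of 1381593_x_at of RT1-Ba (-0.84 ± 0.32, adjusted p = 0.0263), was lost without array 1 of 0.5 mM or array 3 or 4 of 10 mM (changes over the removals from -1.02 to -0.59). The comparisons of each dose with water share their water cultures, so their values are set side by side here and not correlated.

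**Figure D4:**
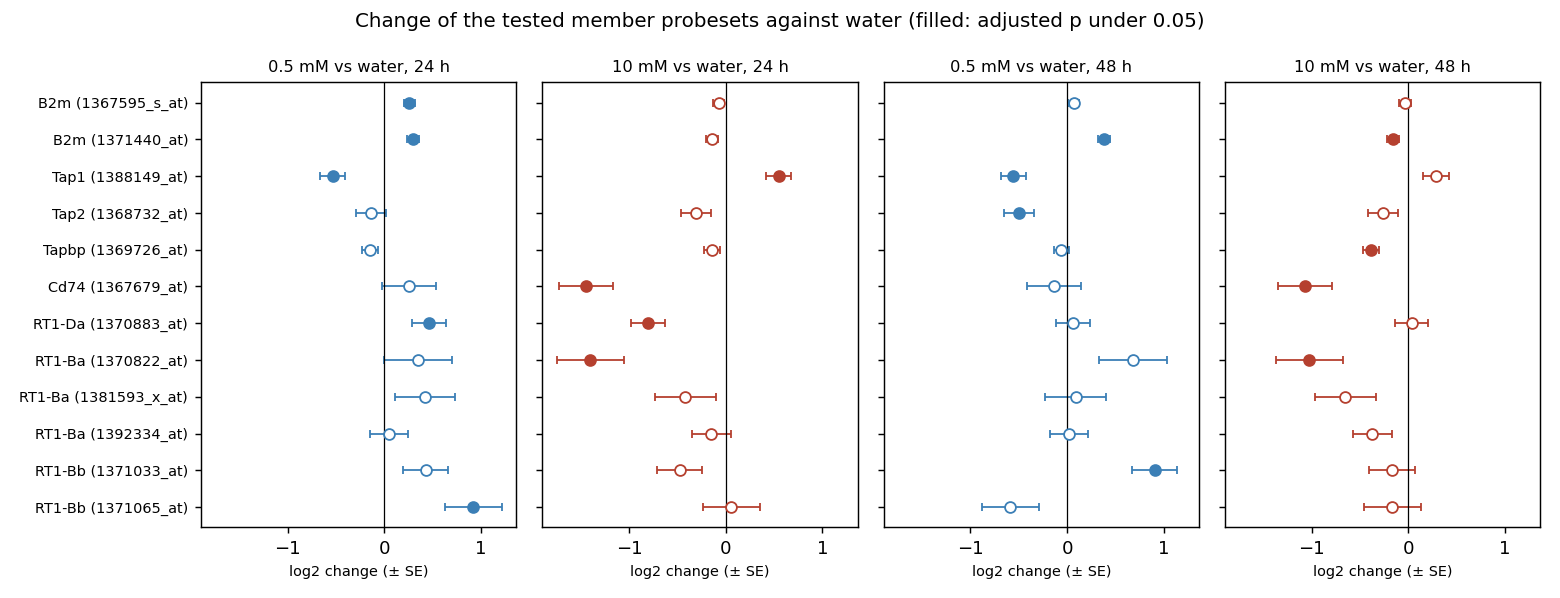
Log2 change from water with its SE (horizontal axis) of the 12 tested probesets (vertical axis) in 4 comparisons, filled where the adjusted p was under 0.05. At 10 mM and 24 h Cd74, RT1-Da and 1370822_at of RT1-Ba lie at -1.44, -0.80 and -1.40 and Tap1 at 0.55.

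The heavy chains of class I, the partners of B2m, moved both ways at 10 mM. By gene, read on the brightest probeset, 6 of 13 tested were higher than water and 4 lower at 24 h (median 0.26), and 6 were higher and 3 lower at 48 h (median 0.15), where 28% and 23.9% of all probesets were called higher and 20.2% and 17.9% lower. Several probesets can stand for 1 gene. Of 26 probesets with class I RT1 symbols, 6 of them shared between several genes, 21 were tested. At 24 h 13 were higher and 5 lower than water (median 0.51 against 0.10 over all probesets), and at 48 h 13 were higher and 3 lower (median 0.45). At 0.5 mM 9 were higher and 3 lower at 24 h, where 11.5% of all probesets were called higher and 12.3% lower. At 48 h 1 was higher and 2 lower, where 10.2% and 11.9% of all were. These genes are near copies of each other, so that signal of one can be read on the probeset of another.

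RT1-CE5, a class I heavy chain, read 3459, 3515, 3545, 3765 and 4349 on 1371209_at in water at 24 h and 12408, 13624.5, 14648, 15283 and 15475 at 10 mM. The groups were far apart, and RT1-CE5 rose by 1.93 ± 0.11 (adjusted p = 1.61e-15), with 0.67 ± 0.11 at 0.5 mM (adjusted p = 3.8e-05). At 48 h the change at 10 mM was 1.14 ± 0.11 (adjusted p = 3.97e-10), smaller than at 24 h by the test of the difference (-0.79, adjusted p = 7.84e-04). RT1-N3 (1.66 ± 0.22) and RT1-M3-1 (1.48 ± 0.13) also rose at 24 h, with adjusted p of 1.29e-07 and 3.68e-11. In the other direction, RT1-S3, a non-classical class I gene, went on 1388212_a_at from 5195 ± 506 to 3073 ± 110 (-0.75 ± 0.10, adjusted p = 2.04e-07). Fcgrt, the class I-like receptor that salvages IgG and albumin and also pairs with B2m, was lower at 10 mM by -0.31 ± 0.07 (adjusted p = 7.51e-04) and higher at 0.5 mM by 0.30 ± 0.07 (adjusted p = 0.00333). Both of these calls were lost after centring on ribosomal protein genes. RT1-A2 was read only on probesets shared with other class I genes.

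Genes that supply and load peptides moved both ways. At 10 mM and 24 h 2 of 12 tested rose and 3 fell (median 0.04), and at 48 h 1 rose and 5 fell (median -0.02). Over the array 28% of probesets were called higher and 20.2% lower at 24 h, and 23.9% and 17.9% at 48 h. Psme2, a subunit of the proteasome activator PA28, rose from 10448 ± 809 to 16350.0 ± 707 at 24 h (0.65 ± 0.07, adjusted p = 8.62e-10). Its partner Psme1 fell (-0.46 ± 0.06, adjusted p = 3e-08). Of the immunoproteasome subunits, Psmb9 rose by 0.37 ± 0.07 at 24 h (adjusted p = 1.17e-04), Psmb8 was not called (0.13 ± 0.07, adjusted p = 0.136), and Psmb10 was not called at 24 h (0.24 ± 0.11, adjusted p = 0.0626) and fell at 48 h (-0.74 ± 0.11, adjusted p = 8.4e-07). Erap1, the aminopeptidase that trims peptides in the endoplasmic reticulum, fell from 15178 ± 1131 to 7247 ± 292 at 24 h (-1.06 ± 0.09, adjusted p = 1.43e-11) and by 1.27 ± 0.09 at 48 h (adjusted p = 4.4e-13). The chaperones Calr and Canx were not called at 10 mM, and Pdia3 was lower at 48 h (-0.20 ± 0.06, adjusted p = 0.00966), a call lost under both other scalings. Tapbpl was not analysed here.

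A list of the interferon pathway and its targets, which holds receptors and kinases beside induced genes, moved both ways at 10 mM. Of 32 tested, 6 rose and 13 fell at 24 h (median -0.24 against 0.10 over all probesets), where 28% of all were called higher and 20.2% lower. At 48 h 6 rose and 9 fell (median -0.11 against 0.04), where 23.9% and 17.9% were. The chemokine Cxcl10 rose from 368 ± 45.3 to 1086 ± 129 (1.52 ± 0.17, adjusted p = 5.23e-09). Isg15, a ubiquitin-like modifier, fell by 0.70 ± 0.25 at 24 h (adjusted p = 0.0207), which was lost without the fifth array of water or of 10 mM (changes over the removals from -0.78 to -0.60). The GTPase Gbp2 was not called at any dose or time against water. Among costimulatory and adhesion genes 1 of 4 tested rose at 10 mM and 24 h, the adhesion molecule Icam1 (0.84 ± 0.14, adjusted p = 6.45e-06), and Cd86 was not called (-0.05 ± 0.43, adjusted p = 0.936).

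Across the 30 arrays, the genes of most similar profile were found among 11463 genes by the Pearson correlation of log2 values, given as a description of arrays that share the groups. For Cd74 they were Cd5l, a macrophage gene, at 0.85, Ctss at 0.84 and Bcl3 at 0.84. Once group means were removed, these values were 0.31, 0.03 and 0.44. The nearest to RT1-Da were Slc25a32, Hsd17b2 and Lyve1 at 0.83, 0.79 and 0.78, and 0.40, 0.12 and 0.15 within groups. Those nearest to RT1-Bb (1371033_at) were Bcl2l11, Gpr182 and Kank1 at 0.86, 0.84 and 0.84, and 0.64, 0.65 and 0.61 within groups. Tap1 was closest to Cdr2, Strap and Rab24, at 0.91 each, and B2m to Apoc3, Gc and COX2, at 0.93, 0.93 and 0.91, of which the first and second encode plasma proteins of hepatocytes. Within groups these were 0.44, 0.43 and 0.37 for Tap1 and 0.86, 0.86 and 0.77 for B2m. The values were 0.74, 0.63 and 0.61 for Tap2 with Nop56, Fcgr3a and Rabggtb, 0.82, 0.78 and 0.77 for Tapbp with Blcap, Rpp25l and Arglu1, and 0.70, 0.68 and 0.66 for RT1-Ba (1392334_at) with Kcnc4, Clk1 and Asb1. Within groups they were 0.54, 0.44 and 0.33 for Tap2, 0.59, 0.66 and 0.49 for Tapbp, and 0.71, 0.65 and 0.57 for RT1-Ba.

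Among the members themselves, Cd74 correlated with RT1-Da at 0.75, with RT1-Ba (1370822_at) at 0.75 and with RT1-Bb (1371033_at) at 0.71 over the 30 arrays, and within groups at 0.37, 0.09 and 0.59. Probesets of one gene were often less alike than that. Those of RT1-Bb correlated at 0.05, those of Tap1 at 0.38, those of B2m at 0.64, and the 4 of RT1-Ba at 0.12 to 0.53.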

How the data were processed

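RNA of 30 cultures was labelled with biotin and hybridised to 1-colour rat expression arrays. The deposited values are intensity signals on a linear scale that the authors made with MAS5, per the submitters' processing notes, with no version stated in what was used here. Of 31099 probesets, 57 controls were left out. By GEO's platform annotation 20826 probesets had 1 symbol, 436 had several and 9780 had no symbol. A RefSeq gene was found for 20758. The deposited intensity was turned here into log2(signal + 16), and probesets under the 30th percentile of the mean (7.39 on the log2 scale) were left out. All 6 groups entered one limma 3.58.1 fit (R 4.3.3; lmFit, eBayes with an intensity trend, 24 residual degrees of freedom). In each comparison the Benjamini-Hochberg adjustment ran over 21729 probesets. The fit was tested on simulated data for 10 mM against water at 24 h. It called 43.9% of planted log2 changes of 0.5, 80.6% of those of 1 and 97% of those of 2. Far fewer probesets were changed there than were called in the data, so these shares need not hold here. A gene's level in a list is that of its brightest probeset.

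The genes described and the gene lists were chosen with earlier results of these data known. The rule for names took the 8 genes, further genes of loading, processing, control and interferon response wherever measured, and the 3 genes most like each of the 8. Names outside it are said to be picked after their values were seen, apart from cell type markers named by whether they passed the filter. Replicates were numbered in accession order, as the labels give no replicate numbers. The running numbers in the labels put 1 array of each group in every 6 consecutive numbers, and whether these shared a plate or day is not stated, so they served as a block in an alternative. Alternatives were pseudocounts of 1 and 64, centring on ribosomal protein genes, quantile normalization, a filter at the 50th percentile or none, array weights, a block of 6 consecutive running numbers, the actin ratio as a covariate, leaving out the arrays of high actin ratio, fitting only the compared groups, and leaving out each array. Figures were drawn with matplotlib 3.10.9 in Python 3.11.15.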

Additional observations from a re-analysis of the deposited data

Results flagged for a closer look

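Single cultures stood apart from the other 4 of their group in 9 of 96 groups examined by Dixon's gap test, where chance gives about 5% of groups. For Cd74 this was the first 0.5 mM culture of 48 h, at 153, and for Tapbp the second 0.5 mM culture of 24 h, at 3168. On RT1-Ba 1370822_at the first 10 mM culture of 48 h read 23.4. For 1377334_at of RT1-Ba the third 0.5 mM culture of 24 h read 45.7, and for 1381593_x_at the first 10 mM culture of 24 h read 322. RT1-Bb 1371033_at read 334 in the first water culture of 48 h. Tap1 1388149_at read 845 in the second 0.5 mM culture of 24 h. The class I gene RT1-CE5 read 4683 in the fifth 0.5 mM culture of 24 h and 3449.6 in the third of 48 h.

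The effect of 10 mM valproate at 48 h minus that at 24 h passed the test for RT1-Da (0.84, adjusted p = 0.0241), Psmb9 (-0.38, adjusted p = 0.0184), Psmb10 (-0.98, adjusted p = 3.62e-05), RT1-CE5 (-0.79, adjusted p = 7.84e-04) and RT1-S3 on 1388212_a_at (0.53, adjusted p = 0.0133). The same difference for 0.5 mM passed for RT1-Bb on 1371065_at (-1.51, adjusted p = 0.012), Psmb9 (-0.30, adjusted p = 0.0459), Psmb10 (-0.59, adjusted p = 0.00711), Psme2 (-0.39, adjusted p = 0.00482), Calr (0.34, adjusted p = 0.0407), Ifi30 (-0.54, adjusted p = 0.0138), RT1-CE5 (-0.71, adjusted p = 0.00243) and Cxcl10 (-0.92, adjusted p = 0.00835).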

How the results depend on the processing

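Of 36 called results of the 8 genes, 21 stayed called with each array left out and in every alternative that tested their probeset. Lost in at least 1 alternative were 14, and in at least 1 removal 8. An alternative whose filter dropped a probeset was not counted for it. The filter at the 50th percentile dropped every probeset of Cd74 and the class II chains. Of 72 results not called, 19 were called in at least 1. The number of called probesets of the 12 moved as follows. At 10 mM and 24 h it was 4, with 8 under quantile normalization and 2 with the filter at the 50th percentile, which tests fewer probesets. At 10 mM and 48 h it was 4, with 2 under that filter. At 0.5 mM and 24 h it was 5, with 2 under quantile normalization and 3 each under that filter, with the actin ratio as a covariate and without the arrays of high actin ratio; removals gave 3 to 5. At 0.5 mM and 48 h it was 4, and 2 with the covariate and without those arrays. Between the doses it was 9 and 6, and 3 at each time under the stricter filter. For water over time it was 2, and 1 without a filter, with the stricter filter, without the arrays of high actin ratio and with only the compared groups; removals gave 1 to 4, with 4 without the second water array of 24 h. For the interaction of 10 mM with time it was 1, with 0 under the stricter filter, 2 with array weights, and 0 to 1 over removals. For that of 0.5 mM it was 1, with 2 after ribosomal centring, 0 under the stricter filter, with the covariate and without those arrays, and 1 to 2 over removals, with 2 without the fifth water array of 24 h.

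B2m changed sign 4 times. On 1367595_s_at the change at 10 mM was 0.071 at 24 h under quantile normalization (adjusted p = 0.0452) and 0.17 at 48 h after ribosomal centring (adjusted p = 0.0245), and that between the doses at 24 h was 0.014 under quantile normalization. On 1371440_at it was 0.040 at 10 mM and 48 h after ribosomal centring. The interaction of 0.5 mM with time on RT1-Bb 1371065_at was -1.32 with the covariate and -1.43 without those arrays. Ribosomal centring moved the median of all probesets at 48 h from 0.04 to 0.24 at 10 mM and from -0.00 to 0.17 at 0.5 mM, between the doses at 24 h from -0.01 to 0.16, and for the interactions from -0.05 to 0.06 and from -0.08 to 0.17. Quantile normalization moved it from 0.10 to -0.01 at 10 mM and 24 h. Apart from the change in probesets or arrays tested, the cause was not tested. The labels give no replicate numbers, but each 6 consecutive running numbers hold 1 array of every group, and a fit with these as a block gave counts of 4, 4, 4, 4, 9, 7, 2, 1 and 1 in the order above. It lost the rise of RT1-Da at 0.5 mM and 24 h, called 1381593_x_at of RT1-Ba between the doses at 48 h (-0.74) and changed no other call of the 12 probesets. Dim probesets of RT1-Ba, close to the filter, limit what their changes can show.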
